A study of Mus musculus with 10 samples.

Results

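The genes described here are 8 common reference genes of real-time PCR, *Actb*, *Gapdh*, *Pgk1*, *Hprt*, *Ppia*, *Tbp*, *Ywhaz* and *Gusb*. They were taken by name, and all 8 were among the 15900 genes of a table of cap analysis of gene expression (CAGE) in the mouse hippocampus. Whole hippocampi came from 10 male ICR mice in 5 groups of 2. The pre-SE group is labelled as untreated. SE 6 h and SE 2 days mice were sampled 6 h and 2 days after status epilepticus (SE), a state of prolonged seizures induced with pilocarpine (PILO), and SE + LEV 6 h and SE + LEV 2 days mice had in addition received the antiepileptic drug levetiracetam (LEV), 1 and 5 times respectively. PILO was given at 9 to 10 weeks of age after methyl scopolamine, SE was defined by 5 generalized convulsive seizures, and diazepam was given to all mice with SE to end it. LEV was given by mouth.

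A reference gene is measured in the same cDNA as a target gene, and the target is divided by it to correct for the amount of RNA and the yield of reverse transcription. A change in the reference itself is then carried, with its sign turned, into every gene that is divided by it. The genes used for this purpose are needed by most cells, and their products range from the cytoskeleton and glycolysis to nucleotide recycling, protein folding, transcription, signaling and the lysosome. The real-time PCR of the study was normalized to *Actb*, so the stability of *Actb* over the 5 groups, beside that of the other 7 genes, was the question addressed here.

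CAGE sequences the capped 5′ ends of RNA, so that each tag stands for 1 transcript start, whatever the length of the transcript. Values are given as CPM, the tag count of a gene scaled so that every library has the same total, and levels of different genes can be set side by side without a correction for length. The libraries held 10540698 to 51710968 tags, as inferred from the steps between low values, and between 176 (*Gusb*) and 316628 (*Actb*) tags stood behind the values of the 8 genes in a library. In whole hippocampus, fewer cells of a type and less RNA per cell cannot be told apart. The neuronal markers *Snap25*, *Syt1*, *Rbfox3* and *Grin1* were present in all libraries, with summed levels of 4638.2 and 4962.0 CPM in pre-SE mice, 3385.9 to 4653.1 CPM in the 4 mice at 6 h and 2910.2 to 3598.2 CPM in the 4 mice at 2 days. The choroid plexus markers *Ttr* and *Kl* summed to between 7.99 and 3959.3 CPM, with low and high libraries in 4 of the 5 groups, and the part of this difference in the spread of the reference genes was not tested.

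Of the 8 genes, *Tbp*, *Ywhaz* and *Ppia* varied least over the 10 libraries, and *Actb* and *Gusb* varied most. The only gene called different between groups was *Gusb*, which was about 4 times as high in both groups at 2 days as before SE. *Actb* was higher in both SE 2 days mice than in the 6 mice sampled earlier, but it was not called, and the SE + LEV 2 days mice differed from each other 2.67-fold.

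**Figure D1:**
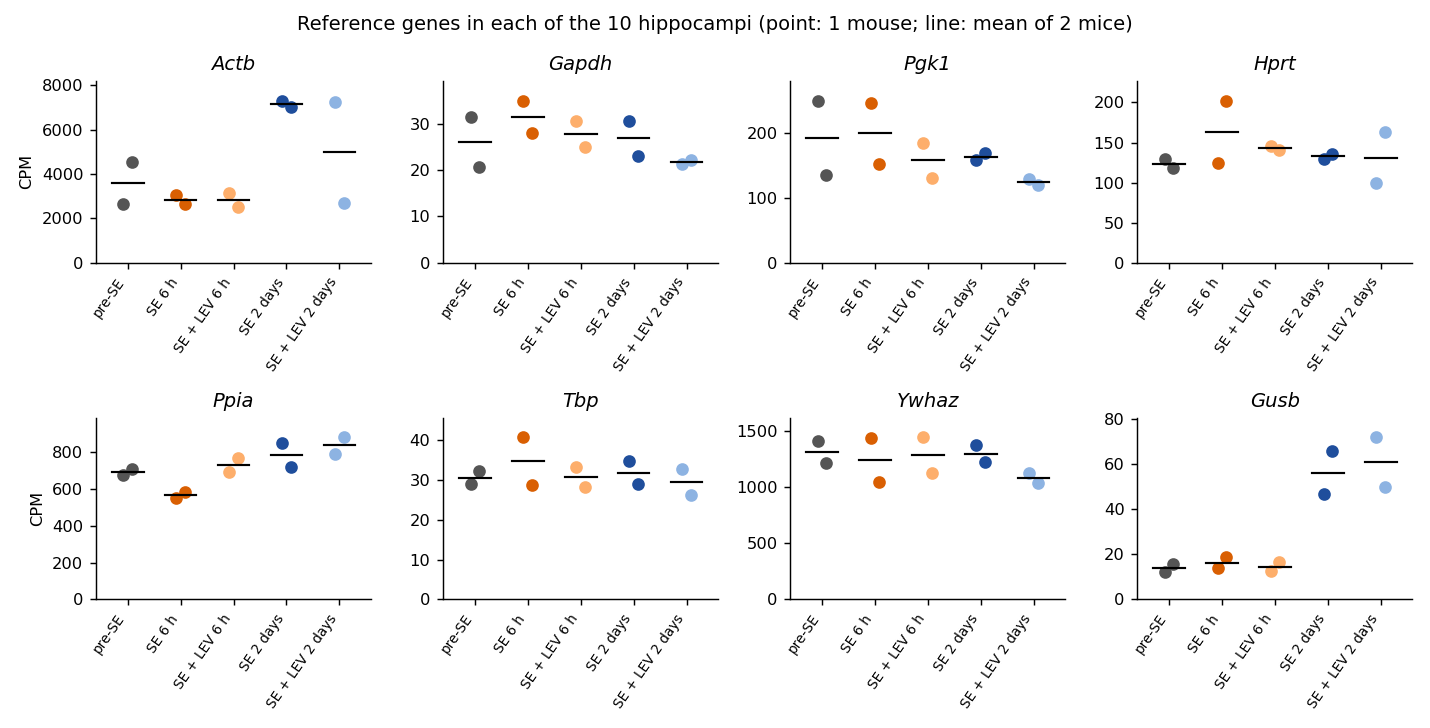
CPM of each reference gene (vertical axes, each starting at 0) in each mouse of the 5 groups (horizontal axes), with points for single mice and lines for the mean of 2 mice. *Gusb* is at 46.72 CPM or more in all 4 mice at 2 days and at 18.98 CPM or less in the other 6, *Actb* is at 7032.18 CPM or more in 3 mice at 2 days, and the other 6 genes have no such step.

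Start regions of the most variable gene, *Gusb*, and of the least variable genes, *Tbp* and *Ywhaz*, are shown because CAGE tags mark transcript starts. The annotation gives these genes 6, 9 and 7 distinct starts. Which of them gave the tags is not known from the 1 value per gene. Each line gives the 150 bases before the start, 5′ to 3′ in the direction of transcription, in the mm9 build. Starts of *Gusb* and *Tbp* are those of RefSeq, placed on mm9 by exact match, and the start of *Ywhaz* is that of the mm9 annotation. Capitals mark matches to GGGCGG, which was searched on both strands, as was CCAAT, while TATAAA was searched on the coding strand between 45 and 16 bases before the start. The *Gusb* line has no capitals because none of these was found in it.
*Gusb*, chr5:130478920-130479069, minus strand: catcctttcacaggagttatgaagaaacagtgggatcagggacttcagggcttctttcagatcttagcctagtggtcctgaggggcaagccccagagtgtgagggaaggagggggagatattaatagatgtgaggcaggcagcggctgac
*Tbp*, chr17:15636702-15636851, plus strand: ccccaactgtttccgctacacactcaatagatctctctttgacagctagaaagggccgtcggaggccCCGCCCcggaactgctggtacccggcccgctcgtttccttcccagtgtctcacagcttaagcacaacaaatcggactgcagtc
*Ywhaz*, chr15:36724294-36724443, minus strand: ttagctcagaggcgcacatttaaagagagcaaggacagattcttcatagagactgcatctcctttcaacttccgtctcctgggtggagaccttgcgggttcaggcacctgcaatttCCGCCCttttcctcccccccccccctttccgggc

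Over the 250 bases before the start of the 7 genes other than *Actb*, *Ppia* held TATAAA at −29, counted from the start, with 4 matches to GGGCGG, and *Pgk1* held CCAAT at −58. *Hprt* held 2 matches to GGGCGG and *Tbp*, *Ywhaz* and *Pgk1* held 1 each. No match to these motifs was found in the windows of *Gapdh* and *Gusb*. Among 12958 RefSeq promoters of 10104 genes of the table (GRCm38 sequence), 1.22% held TATAAA in the same window, 34.7% CCAAT and 57.1% GGGCGG. These matches are a description of the sequence, and the table gives no value for a single start site.

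*Actb* encodes β-actin, the main cytoplasmic actin of the cytoskeleton. In replicates 1 and 2, its level was 2649.51 and 4549.77 CPM in pre-SE mice, 3046.63 and 2642.83 CPM in SE 6 h mice, while SE + LEV 6 h mice had 3168.05 and 2513.12 CPM. At 2 days it was 7319.41 and 7032.18 CPM in SE 2 days mice and 7238.34 and 2711.89 CPM in SE + LEV 2 days mice. The mice of the first 3 groups thus overlapped, both SE 2 days mice were above all 6 of them, and the SE + LEV 2 days mice fell on either side. The gene lies at chr5:143664794-143668433 on the minus strand.

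The logFC, a difference of mean log2(CPM + 0.1), of *Actb* was 1.05 in SE 2 days mice against pre-SE mice (2.07-fold, standard error 0.47, limma adjusted p = 0.25 over all genes). Its 95% confidence interval ran from just below 0 to 2.09. Against SE 6 h mice the logFC was 1.34, with an interval of 0.29 to 2.39 (2.53-fold, limma adjusted p = 0.15). At 6 h the logFC against pre-SE mice was −0.29, with an interval of −1.34 to 0.76. The estimate at 2 days rested on which pre-SE mouse was used, being 0.66 without pre-SE replicate 1 and 1.44 without replicate 2.

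For LEV at 2 days, the estimate of *Actb* was decided by a single mouse. The logFC of SE + LEV 2 days against SE 2 days mice was −0.70 (interval −1.74 to 0.35, limma adjusted p = 1.0). It was 0.01 without SE + LEV 2 days replicate 2 and −1.40 without replicate 1. *B2m*, a subunit of class I histocompatibility molecules that is also used as a reference gene, had 334.44 and 286.0 CPM in SE 2 days mice and 347.78 and 51.71 CPM in SE + LEV 2 days mice, so that replicate 2 was the low mouse for both genes. Other genes also set this mouse apart. *H2-D1* and *S100a10*, for example, were lower in it than in its partner, and *Hprt* and *Aldoc* were higher. Levels of the 7 microglial and macrophage markers (*Csf1r*, *Cx3cr1*, *Aif1*, *Itgam*, *Cd68*, *Tyrobp* and *Ctss*, none at 0) summed to 520.0 CPM in that mouse and to 594.0 CPM in its partner. Both were far above the 172.7 and 178.9 CPM of the pre-SE mice. Choroid plexus markers, by contrast, summed to 25.3 CPM in that mouse and 1492.3 CPM in its partner, and the part of this in the level of *Actb* was not tested. At 6 h, where *Actb* had 2844.7 ± 285.5 CPM without LEV and 2840.6 ± 463.1 CPM with it (SD, n = 2), the logFC was −0.01 with an interval of −1.06 to 1.04.

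*Gusb* encodes β-glucuronidase, a lysosomal enzyme that removes glucuronic acid from glycosaminoglycans. Its level was 11.97 and 15.76 CPM in pre-SE mice, 13.82 and 18.98 CPM in SE 6 h mice, while SE + LEV 6 h mice had 12.46 and 16.7 CPM. It was 46.72 and 65.91 CPM in SE 2 days mice and 72.06 and 49.82 CPM in SE + LEV 2 days mice. All 4 mice at 2 days were above all 6 others, and the mice with and without LEV overlapped at both times. The gene lies at chr5:130464881-130478919 on the minus strand.

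*Gusb* rose in SE 2 days mice, with a logFC of 2.01 against pre-SE mice (4.03-fold, standard error 0.31, limma adjusted p = 0.005). It was 4.35-fold higher in SE + LEV 2 days than in pre-SE mice (limma adjusted p = 0.0066), and its logFC between SE 2 days and SE 6 h mice was 1.77 ± 0.31 (standard error, limma adjusted p = 0.013). At 6 h the logFC was 0.24, with an interval of −0.46 to 0.93. The difference between SE + LEV 2 days and SE 2 days mice was 0.11, with an interval of −0.59 to 0.81. Over 22 alternative settings the logFC of SE 2 days against pre-SE mice was between 0.96 and 2.25 with an adjusted p between 0.0034 and 0.27, and the call was lost in 3 of them, when values were divided by *Actb*, without pre-SE replicate 1 (1.81) and without SE 2 days replicate 2 (1.76).

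The summed level of the 7 microglial and macrophage markers moved with *Gusb*. It was 172.7 to 178.9 CPM in pre-SE mice, 143.6 to 183.5 CPM in the 4 mice at 6 h, 478.6 and 536.0 CPM in SE 2 days mice and 520.0 and 594.0 CPM in SE + LEV 2 days mice. Astrocyte markers (*Gfap*, *Slc1a2*, *Slc1a3*, *Aqp4* and *Aldh1l1*) summed to 1839.8 to 2405.1 CPM in the 6 earlier mice and to 3425.4 to 4820.9 CPM in the 4 mice at 2 days. These markers did not move as a set. *Gfap* had 245.62 and 230.22 CPM in pre-SE mice and 2281.84 and 3642.11 CPM in SE 2 days mice. *Slc1a2* had 1546.8 and 1484.23 CPM in pre-SE mice and 786.25 and 808.71 CPM in SE 2 days mice. *Slc1a3* was also lower in SE 2 days than in pre-SE mice, and *Aqp4* and *Aldh1l1* were higher. Oligodendrocyte markers summed to 4152.0 and 4744.9 CPM in pre-SE mice, 1530.0 and 2306.7 CPM in SE 2 days mice and 2729.0 and 4004.8 CPM in SE + LEV 2 days mice, and neuronal markers were also lower at 2 days than in pre-SE mice. The part of these cells in the levels of *Gusb* and the other reference genes was not tested.

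*Gapdh* and *Pgk1* encode enzymes of glycolysis, glyceraldehyde-3-phosphate dehydrogenase and phosphoglycerate kinase. *Gapdh* had 31.38 and 20.69 CPM in pre-SE mice, 34.99 and 27.96 CPM in SE 6 h mice, 30.5 and 24.86 CPM in SE + LEV 6 h mice, 30.61 and 23.07 CPM in SE 2 days mice and 21.35 and 22.06 CPM in SE + LEV 2 days mice. *Pgk1* had 250.55 and 134.87 CPM in pre-SE mice, 247.0 and 152.66 CPM in SE 6 h mice, 184.91 and 131.49 CPM in SE + LEV 6 h mice, 158.19 and 169.51 CPM in SE 2 days mice and 128.75 and 120.71 CPM in SE + LEV 2 days mice. Both genes were lowest on average in SE + LEV 2 days mice, and the pre-SE mice differed 1.52-fold in *Gapdh* and 1.86-fold in *Pgk1*. The logFC of *Pgk1* in SE + LEV 2 days against pre-SE mice was −0.56, with an interval of −1.30 to 0.18 (limma adjusted p = 0.66).

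*Gapdh* was listed at a low level for so abundant an mRNA. Its mean of 26.7 CPM was above that of 54.2% of the genes tested, against 92.2% for *Pgk1* and 99.7% for *Ywhaz*. The annotation gives *Gapdh* 6 transcripts at chr6:125111871-125116485. When the first 75 bases of each, the length of a tag, were searched in the mm9 genome for matches of at least 70 bases and 95% identity, the transcript whose start is that of RefSeq had no other copy, but 3 of the 6 had copies elsewhere, up to 65. Among genes of the table at these copies were 11 with only a predicted-gene name, such as *Gm10358*, *Gm10313* and *Gm13394*. Their summed level was 15.3 to 25.6 CPM, so that *Gapdh* itself made up 45.5% to 65.2% of the sum of all 12. The SD of log2 values over the libraries was 0.27 for *Gapdh* and 0.16 for the sum. That sum was 39.5 to 53.6 CPM. Whether tags of *Gapdh* were counted at the copies or left out was not tested. The *Gapdh* values, and the measures of stability taken from them, are uncertain for this reason.

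*Hprt* encodes hypoxanthine phosphoribosyltransferase, which recycles purine bases, and lies at chrX:50341314-50374836. It had 129.29 and 117.67 CPM in pre-SE mice, 124.29 and 202.4 CPM in SE 6 h mice, 145.07 and 140.88 CPM in SE + LEV 6 h mice, 129.36 and 136.03 CPM in SE 2 days mice and 98.94 and 162.65 CPM in SE + LEV 2 days mice. Its group means stayed between 123.5 and 163.3 CPM, and the widest gaps were between mice of a group, 1.63-fold at SE 6 h and 1.64-fold at SE + LEV 2 days. In SE + LEV 2 days replicate 2, the mouse with the lower *Actb*, *Hprt* was higher than in its partner.

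*Ppia* encodes cyclophilin A, a prolyl isomerase that assists protein folding. It had 674.02 and 705.69 CPM in pre-SE mice, 549.39 and 583.44 CPM in SE 6 h mice, 690.51 and 768.45 CPM in SE + LEV 6 h mice, 849.09 and 716.15 CPM in SE 2 days mice and 790.55 and 880.03 CPM in SE + LEV 2 days mice. Mice of a group lay close together, with gaps of at most 1.19-fold, and only 2.1% of the genes tested had a smaller SD within groups. Its group means moved more, from 566.4 ± 24.1 CPM in SE 6 h mice to 835.3 ± 63.3 CPM in SE + LEV 2 days mice (SD, n = 2). The logFC was −0.28 in SE 6 h and 0.18 in SE 2 days mice against pre-SE mice (limma adjusted p = 0.54 and 0.73). Between SE 2 days and SE 6 h mice it was 0.46, with an interval of −0.03 to 0.96 (limma adjusted p = 0.28). The starts of 4 of its 5 annotated transcripts had up to 11 copies in the genome. Predicted genes of the table at these copies summed to 22.1 to 57.5 CPM, and *Ppia* made up 92.3% to 97.5% of the total.

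*Tbp* encodes the TATA-binding protein of the transcription factor TFIID, and *Ywhaz* a 14-3-3 protein that binds phosphorylated signaling proteins. *Tbp* had 29.0 and 32.28 CPM in pre-SE mice, 40.77 and 28.78 CPM in SE 6 h mice, 33.23 and 28.37 CPM in SE + LEV 6 h mice, 34.72 and 28.99 CPM in SE 2 days mice and 32.76 and 26.37 CPM in SE + LEV 2 days mice. *Ywhaz* had 1408.92 and 1215.74 CPM in pre-SE mice, 1440.63 and 1044.84 CPM in SE 6 h mice, 1444.29 and 1122.51 CPM in SE + LEV 6 h mice, 1372.33 and 1224.58 CPM in SE 2 days mice and 1128.47 and 1038.08 CPM in SE + LEV 2 days mice. For both genes, the gaps between mice of a group were wider than those between most group means, with an SD of 0.22 within groups and 0.08 between group means for *Tbp*, and 0.21 and 0.11 for *Ywhaz*. The SD within groups is that of single mice. Means of 2 mice vary less by themselves, so the SD within groups and that between group means are not like measures. The logFC of *Tbp* in the 4 comparisons with pre-SE mice was between −0.06 and 0.16 and that of *Ywhaz* between −0.27 and −0.01. *Tbp* overlaps *Pdcd2* on the other strand.

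Over the 10 libraries, the SD of log2 values was 0.18 for *Tbp*, 0.19 for *Ywhaz*, 0.22 for *Ppia*, 0.27 for *Gapdh*, 0.28 for *Hprt*, 0.37 for *Pgk1*, 0.66 for *Actb* and 1.04 for *Gusb*. The median SD of the 15851 genes tested was 0.39, and 6 of the 8 reference genes were below it. The SD of *Tbp* was larger than that of 6.13% of the genes tested, and that of *Actb* larger than that of 80.8%. All 8 genes had a mean of at least 10 CPM. Among the 10454 genes at that level the median SD was 0.33, and the SD of *Pgk1* was above it. In that set the SD of *Tbp* was larger than that of 9.02% of genes, and that of *Actb* larger than that of 90.5%. Neighbors in this order from *Tbp* to *Hprt* differed by less than 0.1, and their order changed among themselves with other scalings and with single mice left out. *Pgk1*, *Actb* and *Gusb* were sixth, seventh and eighth with every mouse left out and under every scaling other than division by *Actb*, which makes *Actb* constant. The ratio of the highest to the lowest library was 1.39 for *Ywhaz*, 2.91 for *Actb* and 6.02 for *Gusb*.

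**Figure D2:**
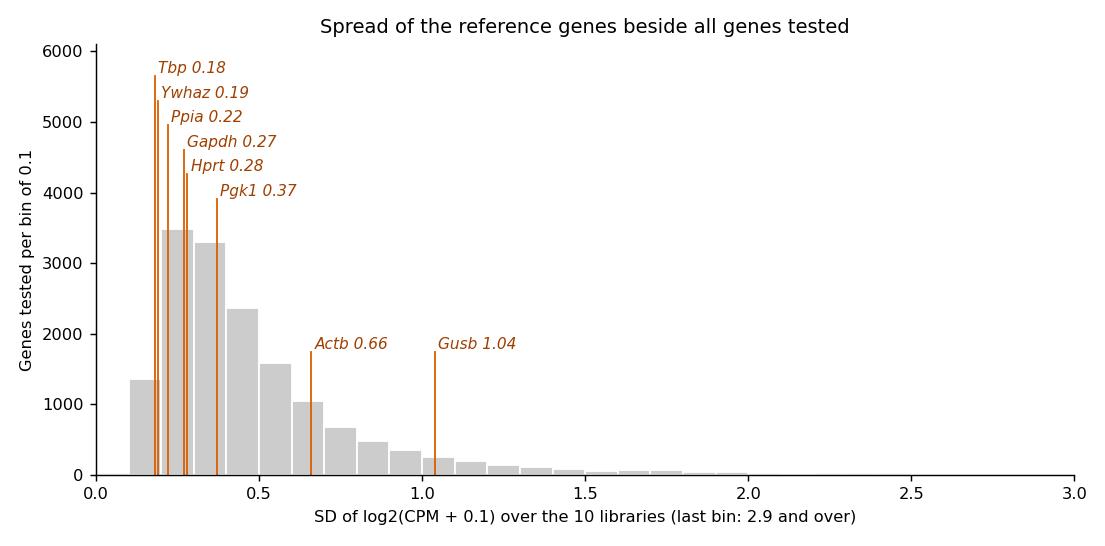
Histogram of the SD of log2(CPM + 0.1) over the 10 libraries (horizontal axis) for all genes tested (bars, number of genes per bin of 0.1), with a line for each reference gene. Most of the lines stand in the lower part of the distribution, *Actb* at 0.66 and *Gusb* at 1.04 in its upper tail.

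The geNorm measure M, the mean SD of the log2 ratios of a gene to each of the other 7, was lowest for *Ywhaz* (0.44), *Tbp* (0.45) and *Gapdh* (0.49) and highest for *Actb* (0.73) and *Gusb* (1.07). When the gene with the highest M was left out step by step, *Gusb* went first and *Actb* second, and *Tbp* and *Ywhaz* remained, with an SD of their log2 ratio of 0.15. The 15 pairs among the other 6 genes had a ratio SD of at most 0.54, and every pair with *Actb* had one of at least 0.61. These measures describe the 10 libraries and are not tests.

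No reference gene was called in SE 6 h against pre-SE mice, where 2.96% of the genes tested were called (limma, adjusted p of at most 0.05). In SE 2 days against pre-SE mice, 1 of 8 was called, beside 5.66% of all genes. None was called in SE + LEV 6 h against SE 6 h mice or in SE + LEV 2 days against SE 2 days mice, where 0.0126% and 0.0% of all genes were called (428 genes had an unadjusted p under 0.05 in the latter). Against pre-SE mice, 0 of 8 were called in SE + LEV 6 h mice and 1 of 8 in SE + LEV 2 days mice, beside 0.322% and 2.85% of all genes. Between SE 2 days and SE 6 h mice 1 of 8 was called, beside 4.25%. The LEV effect at 2 days did not differ by a call from that at 6 h in any of the 8 genes or in any other gene (0.0%, with 377 genes at an unadjusted p under 0.05). A test for any difference among the 5 groups called 1 of 8, beside 5.77% of all genes. The called gene was *Gusb* in each case (F = 23.69, limma adjusted p = 0.0035 over the 5 groups), and *Actb* had F = 2.85 and an adjusted p of 0.33.

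An unadjusted p under 0.05 added only *Actb* in SE 2 days against SE 6 h mice to these calls. A p above the threshold does not show that a level was the same. In SE 6 h against pre-SE mice the 95% intervals of 6 of 8 genes lay within a logFC of −1 to 1, and the same count held in SE 2 days against pre-SE mice, in SE + LEV 6 h against SE 6 h mice and in SE + LEV 2 days against SE 2 days mice. It was 5 of 8 in SE + LEV 2 days against pre-SE mice, and only 2 of 8 for the difference of the LEV effects at 2 days and 6 h. Both mice of the SE 2 days group exceeded both of the pre-SE group in 4 reference genes, *Actb*, *Gusb*, *Hprt* and *Ppia*, and 26.3% of all genes tested had that order. Both SE + LEV 2 days mice were below both SE 2 days mice in *Gapdh*, *Pgk1* and *Ywhaz*, an order found in 12.2% of all genes.

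**Figure D3:**
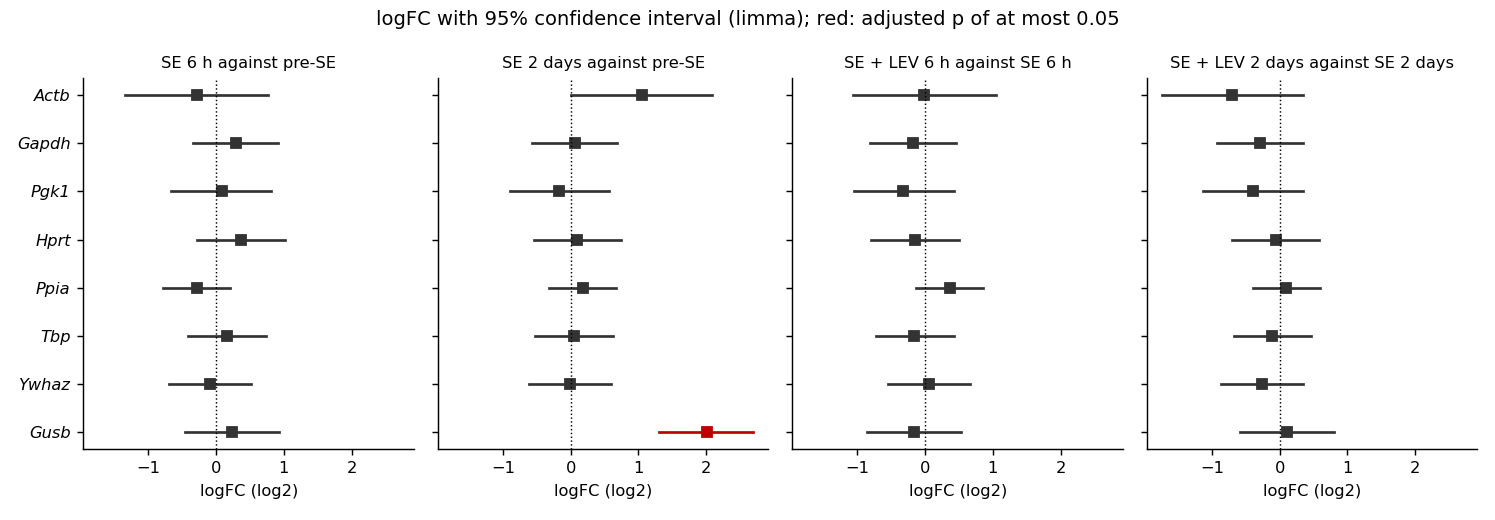
logFC (squares) with 95% confidence intervals (lines) of the 8 reference genes in 4 comparisons, on a log2 scale. The interval of *Gusb* in SE 2 days against pre-SE mice, drawn in red because it was called, runs from 1.31 to 2.70, and that of *Actb* in the same panel from about 0 to 2.09.

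Dividing the CAGE values by *Actb*, the reference of the real-time PCR, turned the higher *Actb* of SE 2 days mice into lower values of the other genes. The divisor here was the CPM of *Actb* in 2 mice a group. The real-time PCR amplified *Actb* from cDNA, with other sample numbers, and whether its values carried the same shift was not tested. Relative to *Actb* and to the pre-SE mean, *Tbp* was at 0.502 of its pre-SE ratio in SE 2 days mice. On the log2 scale *Ywhaz* was at −1.06, *Gapdh* at −0.98, *Hprt* at −0.95, *Ppia* at −0.87 and *Pgk1* at −1.21. *Gusb*, 4.03-fold higher by CPM, was 1.95-fold higher relative to *Actb*. At 6 h the ratios of the 7 genes to *Actb* were between 0.00 and 0.66 above the pre-SE mean in SE 6 h mice. In SE + LEV 2 days mice the ratio of *Tbp* to *Actb* was −0.96 in replicate 1 and 0.14 in replicate 2. A single pair of mice given the same treatment thus differed about as much as the SE 2 days group did from the pre-SE group.

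**Figure D4:**
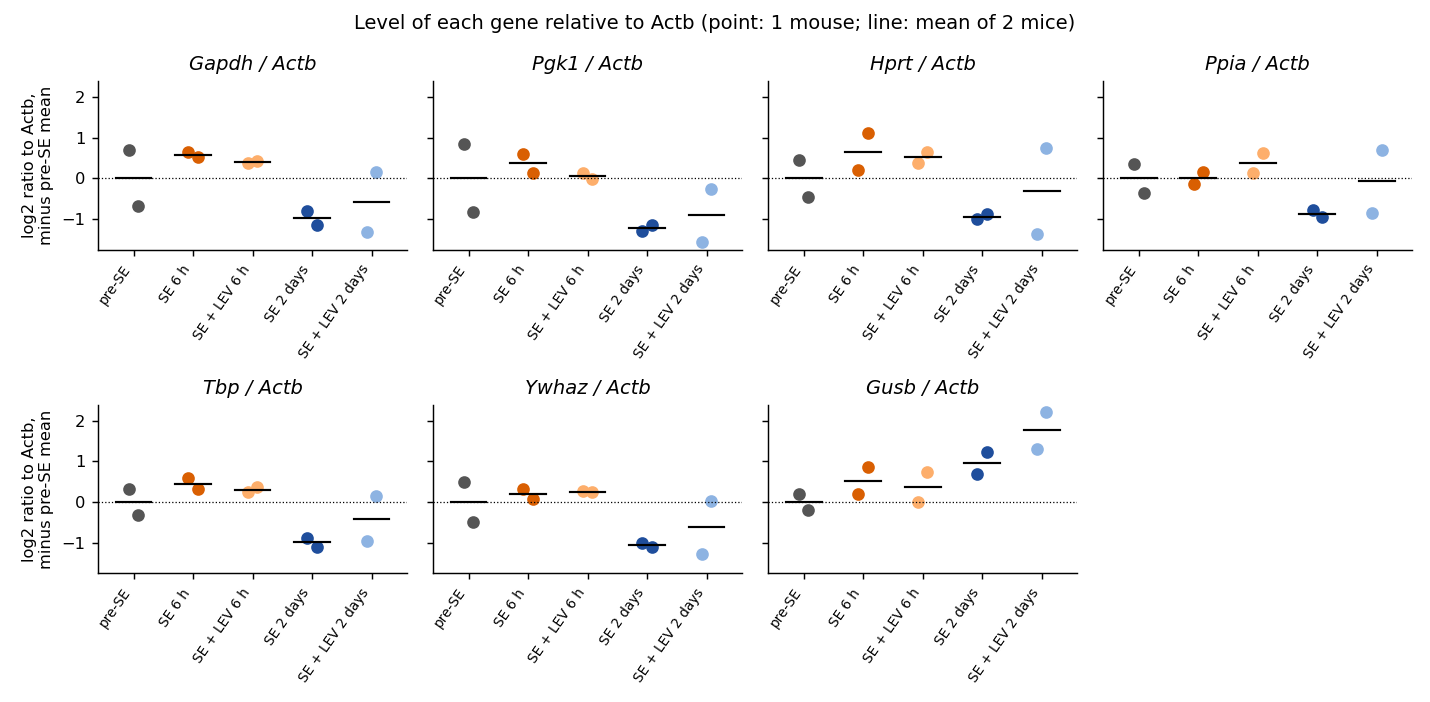
log2 ratio of 7 reference genes to *Actb*, minus the mean of the pre-SE mice (vertical axis), in each mouse (points) of the 5 groups, with lines for the mean of 2 mice. In SE 2 days mice 6 of the 7 genes lie between −1.21 and −0.87 on average and *Gusb* at 0.96, and the SE + LEV 2 days mice lie apart from each other in each panel.

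The same shift was seen across the table. Between SE 2 days and pre-SE mice the median logFC of all genes was −0.03 by CPM and −1.05 after division by *Actb*, and the genes called went from 803 higher and 94 lower (89.5% higher) to 277 higher and 414 lower (40.1% higher). Between SE 2 days and SE 6 h mice they went from 498 higher and 176 lower to 150 higher and 2362 lower, with the median at −1.22. All genes then carry the spread of *Actb* in common, so these counts describe what the division does and are not independent tests. Dividing by the geometric mean of the 8 reference genes, which include *Actb* and *Gusb*, gave 627 higher and 868 lower at 2 days against pre-SE mice. At 6 h against pre-SE mice the division by *Actb* changed less, from 437 higher and 32 lower to 401 higher and 14 lower. In the comparisons of LEV with SE alone, the division raised the genes called from 2 to 49 at 6 h (5 higher and 44 lower) and from 0 to 16 at 2 days (13 higher and 3 lower). At 6 h, however, genes with an unadjusted p under 0.05 went down from 726 to 358, and the median logFC moved only from 0.04 to 0.05. At 2 days such genes went up from 428 to 689, with the median moving from 0.04 to 0.72. The calls gained by the division are thus not read as effects of LEV.

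**Figure D5:**
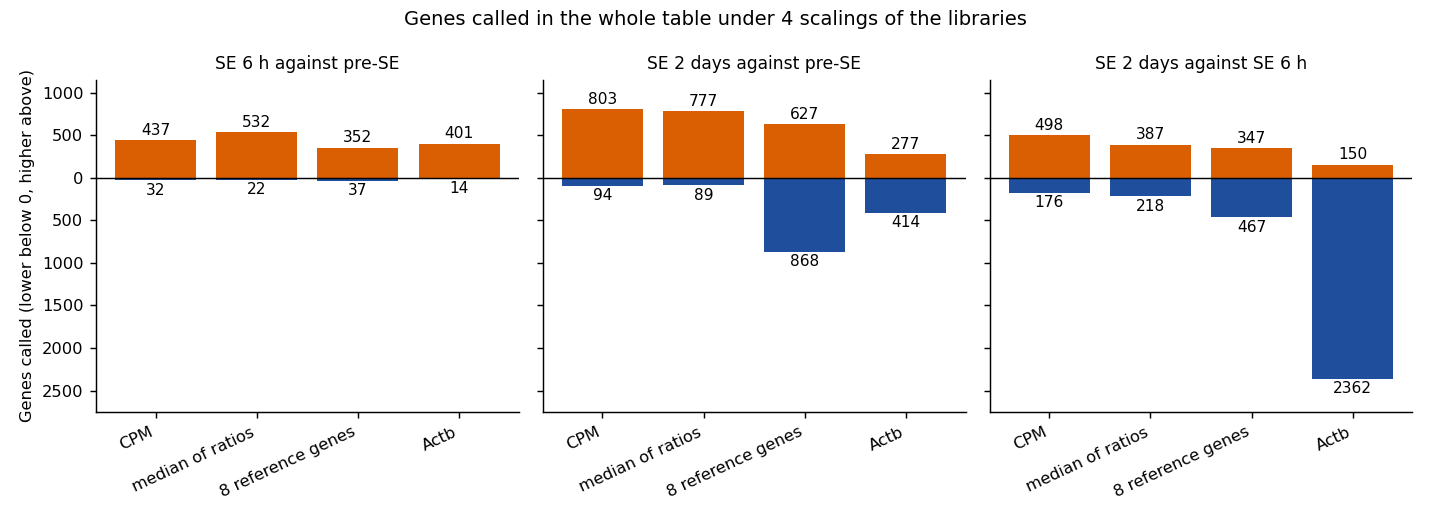
Number of genes called higher (orange, above 0) and lower (blue, below 0) in 3 comparisons, with CPM values as deposited, after median-of-ratios rescaling, and after division by the geometric mean of the 8 reference genes or by *Actb*. Median-of-ratios rescaling stays near CPM, and division by *Actb* gives 2362 genes lower in SE 2 days against SE 6 h mice.

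Of 30 genes that the real-time PCR of the study measured, 17 passed the test as higher and 0 as lower by CPM when SE 2 days mice were compared with pre-SE mice. Division by *Actb* gave 14 higher, with the calls of *Ccl5*, *Gbp2*, *Ggta1* and *H2-D1* lost and that of *Cxcl11* gained, and 2 lower, *Amigo2*, a marker of reactive astrocytes, and *Slc1a2*, the main glutamate transporter of astrocytes. The logFC of *Ccl2*, a chemokine that draws monocytes, went from 6.72 to 5.71. That of *Gfap*, the intermediate filament of astrocytes, went from 3.60 to 2.55. In SE 6 h against pre-SE mice, 11 were called higher and 1 lower by CPM, and 13 higher and 0 lower after division by *Actb*. Between SE + LEV 6 h and SE 6 h mice none was called by CPM, and the cytokine gene *Il6* and *Il1rn*, the gene of the interleukin-1 receptor antagonist, were called lower after the division, although their logFC moved only from −2.81 to −2.96 and from −4.29 to −4.40. Their standard errors were 0.56 and 0.76 by CPM and 0.72 and 0.75 after the division. Neither call is therefore read as an effect of LEV that the division uncovered. The study chose the genes of its real-time PCR, of which *Il23a*, *Ccl22*, *Cxcr3* and *C3* were not in the list used here. The counts are thus not independent evidence of a direction.

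Among 16 further reference genes of mouse PCR, the SD of log2 values ranged from 0.14 for *Canx*, a chaperone of the endoplasmic reticulum, to 1.65 for *B2m*. Their median SD was 0.29, beside 0.27 for the 8 genes. *B2m* was called higher in SE 2 days than in SE 6 h mice (logFC 3.31, limma adjusted p = 0.039).

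The families of the reference genes were read in the same way. Against pre-SE mice, 2.96% of all genes tested were called in SE 6 h and 5.66% in SE 2 days mice. Between SE 2 days and SE 6 h mice the share was 4.25%. Beside these shares, a single call in a short list is a description of that gene and not a result about its family. Of 15 glycolysis genes tested, 1 was called higher in SE 2 days against pre-SE mice, the hexokinase gene *Hk2* (logFC 2.23, limma adjusted p = 0.012), from 1.48 and 0.64 CPM to 4.45 and 5.54 CPM, and the enzyme genes *Aldoa*, *Tpi1* and *Pgam1* had an SD of 0.14 to 0.20. Among lysosomal hydrolase genes, *Man2b1*, an α-mannosidase gene, was called higher in SE 2 days than in SE 6 h mice (limma adjusted p = 0.04), and *Gla*, an α-galactosidase gene, was called lower (logFC −1.99, limma adjusted p = 0.047). Of 8 other cyclophilin genes, *Ppig* was called higher at 6 h against pre-SE mice (logFC 1.19, limma adjusted p = 0.02). Among 13 genes of TFIID subunits other than *Tbp*, *Taf13* was called higher at 6 h (logFC 2.03, limma adjusted p = 0.0048), with 49.62 and 55.5 CPM in SE 6 h mice against 13.42 and 12.11 CPM in pre-SE mice. Of 6 purine salvage genes, *Ada*, which encodes adenosine deaminase, was called higher at 6 h (logFC 1.99, limma adjusted p = 0.041). None of the 5 other 14-3-3 genes was called, and *Ywhag* had the lowest SD among them, 0.09.

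*Actg1*, the gene of the other cytoplasmic actin, had 41.32 CPM in pre-SE replicate 1 and 257.19 to 838.66 CPM in the other 9 libraries. Its SD of 1.31 was above that of *Actb*. It was not called in any comparison.

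The genes whose log2 values followed *Actb* most closely over the 10 libraries, among genes with a mean of at least 10 CPM, were *Gm15725* (Pearson r = 0.974), *Rpsa* (0.973), *SNORA62* (0.972), *Psmb4* (0.972) and *Tmem97* (0.969). *SNORA62* lies within *Rpsa*, and the range of its values, 266.68 to 556.45 CPM, was nearly that of *Rpsa*, 265.83 to 555.43 CPM. The gene most like *Gusb* was *Lgals1* (r = 0.992), with 24.8 to 691.72 CPM. For the others it was *2610101N10Rik* for *Gapdh* (0.953), *9130011J15Rik* for *Pgk1* (0.951), *Zfp868* for *Hprt* (0.928), *Fam105a* for *Ppia* (0.946), *Gm7887* for *Tbp* (0.9) and *Gripap1* for *Ywhaz* (0.982). These values are the highest of many genes over 10 libraries that share the group structure, and they are given as a description.

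Within the 8 genes, *Gapdh*, *Pgk1* and *Ywhaz* moved together over the libraries (r = 0.82 for *Gapdh* and *Pgk1*, 0.8 for *Pgk1* and *Ywhaz*, 0.71 for *Gapdh* and *Ywhaz*). *Actb* and *Gusb* had r = 0.72, and *Actb* and *Hprt* −0.58. The values come from the same 10 libraries and from shares of the same library totals.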

How the data were processed

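CAGE was done on whole hippocampi of 10 mice, 2 in each of 5 groups given by the labels. The authors extracted total RNA, kept samples with an RNA integrity number over 7, sequenced reads of 75 bases, mapped them to mm9 with BWA 0.7.17 and HISAT2 2.0.5, clustered tags with the RECLU pipeline (bedtools 2.12.0, edgeR 3.22.5) and deposited CPM values, with 1 value per gene and mouse. How tags with several matches in the genome were placed is not given in the sources used here. All values were whole multiples of 1 tag within 0.005 CPM, from which the library totals were inferred, and 0 columns of per-sample values were left out. The replicates are separate mice, as the study states.

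The members and lists were chosen with earlier results of these data known. A filter of 0.1 CPM, to be reached in 2 or more libraries, left 15851 genes (with all 8 reference genes among them), which were fitted as log2(CPM + 0.1) in limma 3.58.1 (R 4.3.3) with 5 group means and a mean-variance trend, with two-sided tests and Benjamini-Hochberg adjustment over all genes. The threshold for a call was an adjusted p of 0.05. Fold changes on this scale understate those of low genes. The test was checked on simulated data. All 8 genes are named. Some results on other genes and on start regions are not reported here. In the other lists, up to 3 called genes with the largest change in each comparison are named, and the genes most like a reference gene were taken by Pearson r among genes with a mean of at least 10 CPM. The SD values of other list members, *Slc1a2*, *Amigo2*, *Gfap*, *Ccl5*, *Gbp2*, *Ggta1*, *H2-D1*, *Cxcl11*, *Il6*, *Il1rn*, *B2m* in each SE mouse and *Actg1* were singled out after their values were seen. So were *S100a10*, *Aldoc* and the values of single astrocyte markers. Alternatives were other pseudocounts (0.01, 0.5, 1) and filters, median-of-ratios and trimmed-mean rescaling, division by *Actb* or by the 8 genes, replicate number as a block, no trend, only the groups compared, and each mouse left out in turn.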

Additional observations from a re-analysis of the deposited data

Results flagged for a closer look

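The logFC between SE 2 days and SE 6 h mice, which is the difference of the changes from pre-SE mice at the 2 times, was 1.77 for *Gusb* and passed the test across all genes (limma adjusted p = 0.013). For *Ppia* the same difference was 0.46. Both SE 6 h mice were below both pre-SE mice and both SE 2 days mice above them, and the difference did not pass the test (limma adjusted p = 0.28).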

How the results depend on the processing

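The number of reference genes called kept its value of 0 in the 5 comparisons without a call under all alternatives run. In SE 2 days against pre-SE, SE + LEV 2 days against pre-SE and SE 2 days against SE 6 h mice, and in the test over the 5 groups, the 1 call (*Gusb*) became 0 after division by *Actb* (logFC 0.96, 1.77 and 0.44 in the 3 comparisons), and in SE + LEV 2 days against pre-SE mice it became 0 in a fit of only the groups compared. With each mouse left out it ranged from 0 to 1 in these 3 comparisons. The mice without which it was lost were pre-SE replicate 1 and SE 2 days replicate 2, pre-SE replicate 1 and SE + LEV 2 days replicate 1, and SE 6 h replicate 1 and SE 2 days replicate 2, respectively, and where a group had 1 mouse left it was taken to vary like the others. The cause was not tested. With the replicate block the count stayed at 1 in these comparisons, and the block changed no other call. Same-numbered mice are different animals, and the correlation of their deviations ranged from −0.436 to 0.343. With the numbers of SE + LEV 2 days mice crossed, an alternative chosen after seeing the data, the counts were 0 against SE 2 days and 1 against pre-SE mice. All 128 alternative SD values stayed within the spread between replicates. Counts over the whole table ranged from 63 to 638 (451 as reported) in SE + LEV 2 days against pre-SE mice. They ranged from 249 to 1495 (897) in SE 2 days against pre-SE mice and from 162 to 2512 (674) in SE 2 days against SE 6 h mice. They fell from 469 to 111 in SE 6 h against pre-SE mice without SE 6 h replicate 2, from 451 to 108 in SE + LEV 2 days against pre-SE mice without SE + LEV 2 days replicate 1, and from 51 to 0 in SE + LEV 6 h against pre-SE mice without SE + LEV 6 h replicate 1. edgeR and DESeq2 on recovered tags were planned and not run. All values were whole multiples of 1 tag within 0.005 CPM, but a stricter check of the deposited CPM did not accept this for every library. The inferred tag numbers are therefore used only to describe depth. With 2 mice a group, changes of *Actb* under about 2-fold lay within the error.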
